A study of Mus musculus with 16 samples.

Results

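The data are ATAC-seq peaks from mouse small cell lung cancer (SCLC), and the genes examined are 10 genes of the multiciliated cell fate. They comprise 8 regulators, Foxj1, Rfx2, Rfx3, Mcidas, Gmnc, Ccno, Trp73 and Myb, and 2 genes of the ciliary machinery, Dynlrb2 and Nme5, and all 10 are called regulators here for short. ATAC-seq uses the transposase Tn5 to place sequencing adaptors where chromatin is open. Members were all listed peaks whose centre had the transcription start site of one of these genes as its nearest protein-coding start site in the basic GENCODE annotation of mm10. By this rule 58 of the 80367 listed peaks belonged to the regulators. Every library was made from tumors that arose in TKO;Hes1 GFP/+ mice. In these mice floxed alleles of the 3 tumor suppressor genes Rb, p53 and p130 (fl/fl each) are deleted after Ad-CMV-Cre is given through the trachea, and GFP is expressed from 1 Hes1 allele. The CMV promoter is active in many cell types, so Cre was not limited to 1 lung cell type. GFPhigh cells, called non-neuroendocrine (non-NE), and GFPneg cells, called neuroendocrine (NE), were sorted from the tumors of single mice, pooled within a mouse. Each group held 4 libraries, sequenced on 2 lanes each, from 3 mice, with 1 technical replicate, so that 2 of the 4 pairs came from 1 mouse. Per the study's methods, tumors were induced in young adult mice of both sexes and collected some months later. The strain background of these mice is not given in the sources used here.

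Multiciliated cells carry many motile cilia and clear mucus from the airways. In the airway they arise from progenitors in which Notch signaling is low, while high Notch signaling favors the club (secretory) fate. The geminin-like coactivators GEMC1 (encoded by Gmnc) and multicilin (Mcidas) work with E2F factors at the top of the program, cyclin O (Ccno) acts in the amplification of centrioles, and p73 (Trp73) and MYB act early in it. FOXJ1 and the RFX factors RFX2 and RFX3 then switch on the genes of the ciliary axoneme. DYNLRB2, a light chain of dynein, and NME5, a protein of motile cilia and sperm flagella, belong to the machinery that this program builds.

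Below, a peak is called opened when it was in the deposited list of peaks more accessible in GFPhigh than in GFPneg cells, and closed when it was in the list of peaks less accessible in GFPhigh cells. Only peaks that passed the authors' limits are in these lists, so a gene without a listed peak may still be accessible in both populations. The deposited count is the number of reads in a peak after scaling, averaged over the libraries of both groups. It gives the depth behind a peak, not the size of its difference. No value per library was used, and the deposited columns of the authors' comparison were left out. No SD, n or test is therefore given for any peak, and the depth of each library is unknown. Markers of the sorted populations lay mostly as labelled, set against 50.8% opened over all listed peaks. Of the peaks of 8 NE marker genes 60 of 71 were closed (15.5% opened). Insm1 alone gave 28 of these 60, while Chga had 8 opened and 6 closed peaks and Syp had none. Of the peaks of 5 genes of the Notch-active state (Hes1, Rest, Notch2, Yap1, Wwtr1) 56 of 73 were opened (76.7%). Hes1, the locus of the GFP reporter, gave 26 of these 56 and also 11 closed peaks. Because the samples were bulk populations, more cells of an accessible type and more accessibility per cell cannot be told apart.

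The following stretches are shown to give the opened promoter peaks, the single or main opened peaks of other loci, and 1 closed intronic peak each of Mcidas and Rfx3, picked because it holds an AP-1 string. They were read from the GRCm38.p6 genome, the assembly of mm10, on the strand of the gene, 5′ to 3′. Capitals mark exact matches, on either strand, to short strings bound by transcription factor families, given in the account of motifs. The Foxj1 sequence is the first 300 bases upstream of the start site, all within the promoter peak (chr11:116335400-116335699, minus strand), that of Dynlrb2 is the whole upstream part of its promoter peak (chr8:116504822-116504973, plus strand), and that of Trp73 is the short upstream part at its first start site (chr4:154140209-154140281, minus strand). The Rfx2 and Myb sequences are the central parts of intronic opened peaks (chr17:56819777-56820076 and chr10:21159055-21159354, both minus strand). That of Ccno is the central part of the peak upstream of the gene (chr13:112982202-112982501, plus strand). That of Gmnc is the whole peak in its intron (chr16:26967480-26967666, minus strand). For Mcidas the deepest opened peak, past the end of the gene, is shown by its central part (chr13:113000723-113001022, plus strand) and the closed intronic peak whole (chr13:112996542-112996619, plus strand), and for Rfx3 a closed intronic peak by its central part (chr19:27904731-27905030, minus strand).
Foxj1 opened promoter: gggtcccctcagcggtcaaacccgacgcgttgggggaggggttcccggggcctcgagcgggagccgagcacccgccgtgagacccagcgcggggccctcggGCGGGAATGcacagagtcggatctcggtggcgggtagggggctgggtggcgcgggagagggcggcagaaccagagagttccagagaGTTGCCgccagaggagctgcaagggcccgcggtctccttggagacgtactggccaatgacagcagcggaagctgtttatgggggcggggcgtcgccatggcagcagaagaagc
Dynlrb2 opened promoter: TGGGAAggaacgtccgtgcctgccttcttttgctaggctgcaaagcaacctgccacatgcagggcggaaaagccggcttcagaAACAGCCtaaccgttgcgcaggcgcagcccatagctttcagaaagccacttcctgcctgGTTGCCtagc
Trp73 opened promoter: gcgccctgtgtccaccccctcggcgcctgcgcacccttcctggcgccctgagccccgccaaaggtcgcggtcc
Rfx2 opened intron: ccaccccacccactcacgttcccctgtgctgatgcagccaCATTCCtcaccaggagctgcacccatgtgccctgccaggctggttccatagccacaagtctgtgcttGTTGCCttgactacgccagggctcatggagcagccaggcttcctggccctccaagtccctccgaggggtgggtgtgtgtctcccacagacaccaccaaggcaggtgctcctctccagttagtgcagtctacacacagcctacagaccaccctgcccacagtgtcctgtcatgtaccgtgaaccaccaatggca
Myb opened intron: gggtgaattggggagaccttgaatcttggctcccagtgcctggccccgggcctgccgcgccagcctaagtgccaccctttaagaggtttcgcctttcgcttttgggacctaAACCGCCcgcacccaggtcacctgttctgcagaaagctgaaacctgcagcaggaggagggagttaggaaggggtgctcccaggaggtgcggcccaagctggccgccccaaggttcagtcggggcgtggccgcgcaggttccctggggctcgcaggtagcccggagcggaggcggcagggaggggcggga
Ccno opened upstream: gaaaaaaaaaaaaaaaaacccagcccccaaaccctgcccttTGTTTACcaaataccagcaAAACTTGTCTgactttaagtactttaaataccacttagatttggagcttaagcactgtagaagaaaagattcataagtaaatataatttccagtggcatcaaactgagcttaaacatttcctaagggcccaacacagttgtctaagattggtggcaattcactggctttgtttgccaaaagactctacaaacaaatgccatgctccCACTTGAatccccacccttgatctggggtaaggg
Gmnc opened intron: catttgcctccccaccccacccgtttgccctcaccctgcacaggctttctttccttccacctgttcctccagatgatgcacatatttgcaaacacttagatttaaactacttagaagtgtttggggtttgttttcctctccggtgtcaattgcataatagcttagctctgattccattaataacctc
Mcidas opened downstream: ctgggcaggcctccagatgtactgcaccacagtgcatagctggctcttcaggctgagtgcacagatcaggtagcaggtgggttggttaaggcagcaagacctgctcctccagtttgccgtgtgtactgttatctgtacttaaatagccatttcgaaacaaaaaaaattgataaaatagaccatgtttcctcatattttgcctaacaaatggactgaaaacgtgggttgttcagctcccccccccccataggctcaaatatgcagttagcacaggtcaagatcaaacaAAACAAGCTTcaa
Mcidas closed intron: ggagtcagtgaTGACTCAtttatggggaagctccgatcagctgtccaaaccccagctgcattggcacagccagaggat
Rfx3 closed intron: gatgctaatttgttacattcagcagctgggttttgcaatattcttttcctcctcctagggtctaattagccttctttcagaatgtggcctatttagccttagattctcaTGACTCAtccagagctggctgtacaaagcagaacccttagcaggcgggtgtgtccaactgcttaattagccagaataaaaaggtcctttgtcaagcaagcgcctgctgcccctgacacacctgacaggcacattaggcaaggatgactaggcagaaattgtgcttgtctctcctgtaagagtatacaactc

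Taken over all genes, the regulators' peaks were split evenly. Of their 58 peaks 29 were opened and 29 closed, an opened share of 50% (95% Wilson interval 37.5 to 62.5%), against 50.8% of all listed peaks. Single loci were not split evenly. Rfx3 held 15 of the 29 closed peaks and Dynlrb2 13 of the 29 opened peaks. Without Rfx3 the opened share was 65% (49.5 to 77.9%), without Dynlrb2 40% (26.3 to 55.4%) and without both 59.1% (38.7 to 76.7%). These intervals cover counting error only, and peaks of 1 locus are not independent of each other. In all, 9 of the 10 genes had at least 1 listed peak, against 66.6% of all protein-coding genes. Foxj1, Rfx2, Gmnc and Ccno had opened peaks and no closed peak, Rfx3, Mcidas, Trp73, Myb and Dynlrb2 had both, and Nme5 had none.

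**Figure D1:**
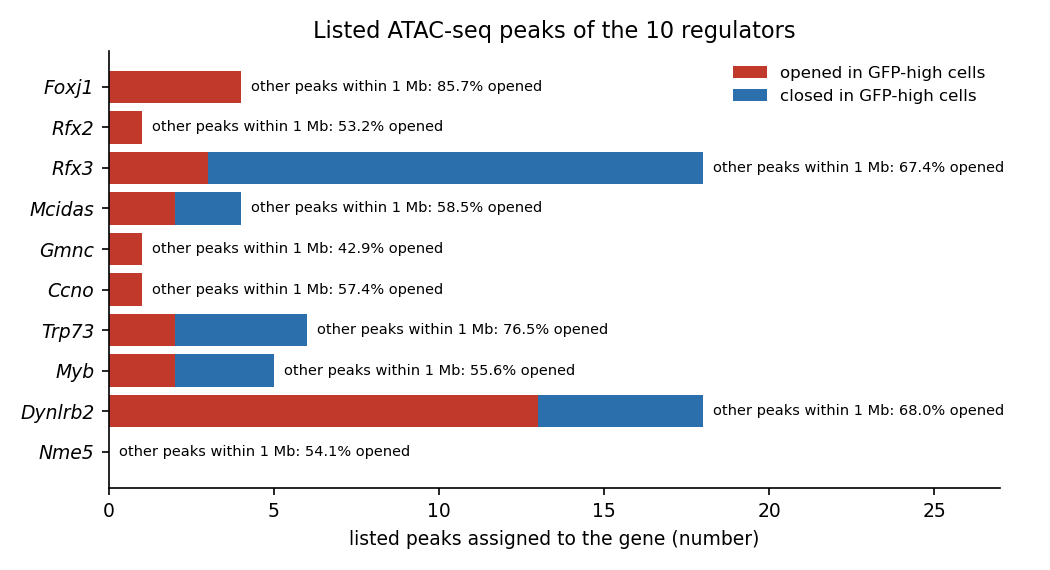
Number of listed peaks assigned to each of the 10 regulators (horizontal axis), split into peaks opened (red) and closed (blue) in GFPhigh cells, with the opened share of the other listed peaks within 1 Mb of each gene written beside its bar. Rfx3 and Dynlrb2 hold 18 peaks each with opposite splits, 3 opened to 15 closed and 13 opened to 5 closed.

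The opened share of the member peaks was lower farther from the start sites, as it was over all listed peaks. Within 10 kb of a start site 10 of 15 member peaks were opened (66.7%, against 65.4% of all listed peaks at that distance). Within 100 kb it was 21 of 38 (55.3%, against 55.7%), and beyond 100 kb 8 of 20 (40%, against 32.5%). The median distance to the start site was 23.9 kb for opened and 48.3 kb for closed member peaks, against 17.5 kb and 42.4 kb for all opened and all closed peaks. By the position of the centre, 5 opened member peaks were within 1 kb of a start site of any gene, 10 were in introns and 14 were intergenic. Of the closed member peaks 18 were in introns, 9 were intergenic, 1 was in a coding exon and 1 lay within 1 kb of a small RNA gene inside Trp73. Of the 21 member peaks within the body of their own gene 15 were closed (71.4%, against 47.2% over all listed peaks so placed). Rfx3 gave 9 of these 15, and without it 6 of 12 were closed.

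**Figure D2:**
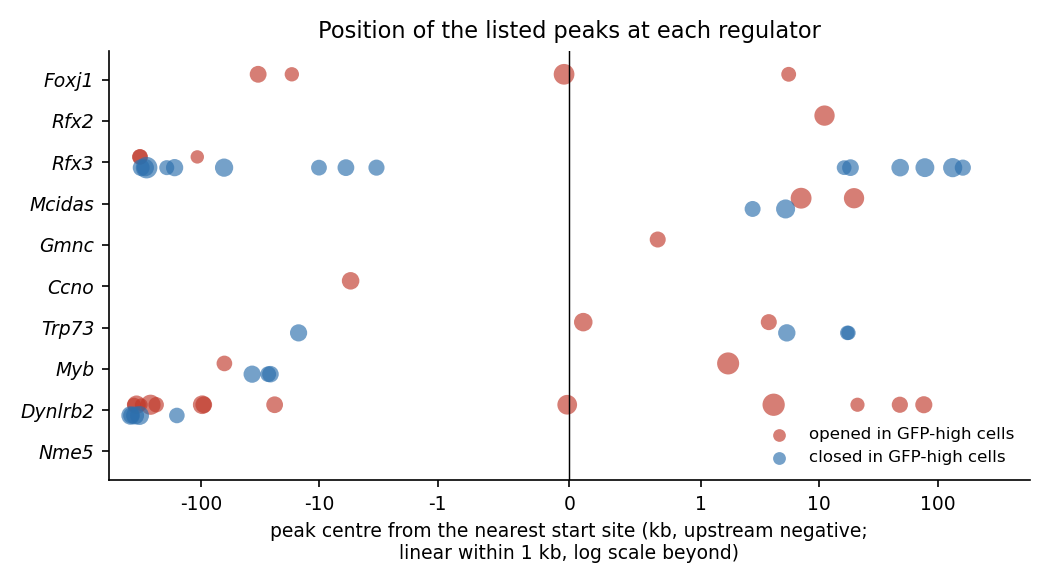
Distance of each member peak's centre from the nearest start site of its gene in kb (horizontal axis, linear within 1 kb and logarithmic beyond, upstream to the left), by gene, with opened peaks in red and closed peaks in blue and point area growing with the logarithm of the mean normalized count. Foxj1, Dynlrb2, Trp73 and Gmnc have an opened peak within 1 kb of a start site and no regulator has a closed one there.

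An opened peak within 1 kb of an own start site was found at 4 of the 10 genes (Foxj1, Gmnc, Trp73 and Dynlrb2), against 26.6% of all protein-coding genes. A closed promoter peak was found at 0 of the 10, against 8.42% of all protein-coding genes. Without the machinery genes Dynlrb2 and Nme5 it was 3 of 8 opened and 0 closed. With only 10 genes both counts lie near the background, and no test was run. The peaks differed in depth. The 29 opened member peaks had a median of 23.3 normalized reads (range 4.92 to 404.6), below the 40.7 of all opened peaks, and 11 of them lay above that value. The 29 closed ones had a median of 25.6 (range 8.71 to 266.4), close to the 25.8 of all closed peaks. More than 100 normalized reads were found in 7 of the opened member peaks (24.1%, against 25.5% of all opened peaks) and in 1 of the closed ones (3.45%, against 9.20% of all closed peaks). Width and GC content were near those of the lists, with median widths of 237 bp (opened) and 262 bp (closed) against 300 and 248 bp, and a median GC content of 50.6% and 49.0% against 51.1% and 48.9%.

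**Figure D3:**
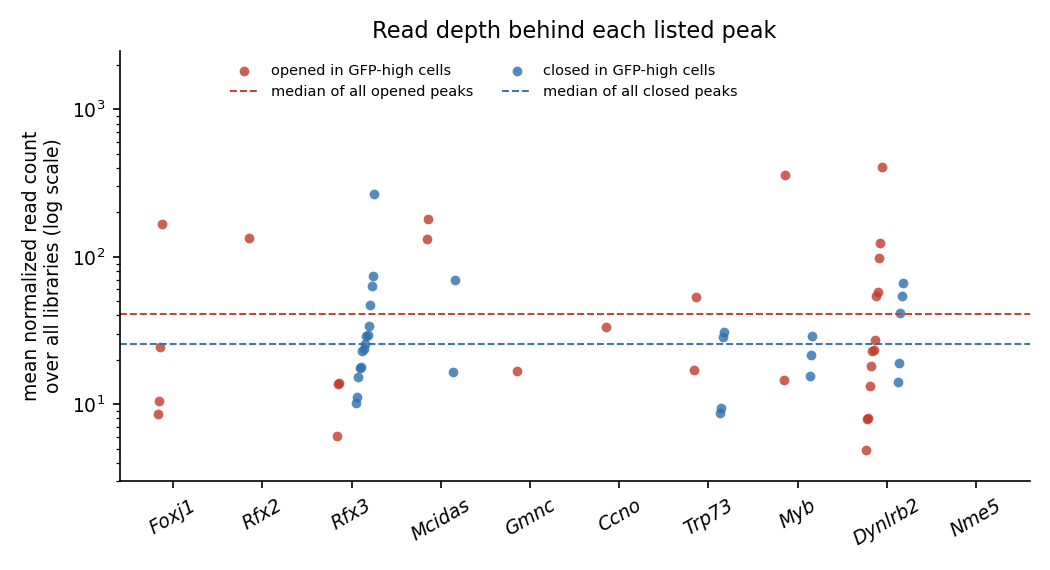
Mean normalized read count of every member peak over all libraries (vertical axis, log scale) by gene, opened in red and closed in blue. Dashed lines are the medians of all opened (40.7) and all closed (25.8) peaks, and the deepest member peaks are those in introns of Dynlrb2 (404.6) and Myb (358.2).

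Among the genes at the top of the program, Gmnc (ENSMUSG00000068428.7, chr16:26913553-26991652, minus strand) had a single listed peak. This opened peak of 187 bp (chr16:26967480-26967666) had 16.9 normalized reads, more than 22.3% of all opened peaks. It counts as a promoter peak only through an internal start site of Gmnc 0.67 kb away, and it lay 24.1 kb downstream of the gene's outermost start, within an intron. The surroundings of Gmnc were sparse, with 14 other listed peaks within 1 Mb, of which 42.9% were opened.

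Mcidas (ENSMUSG00000074651.3, chr13:112993845-113000394, plus strand) and Ccno (ENSMUSG00000042417.5, chr13:112987802-112990777, plus strand) lie next to each other, with start sites 6043 bp apart. Neither had a listed peak within 1 kb of its start site. The 2 peaks inside Mcidas were closed. The first, of 78 bp in an intron 2.74 kb downstream of the start site, had 16.6 normalized reads. The second, of 251 bp, lay over coding sequence 5.20 kb downstream (chr13:112998917-112999167) and had 69.2. Beyond the end of the gene the direction was the opposite. An opened peak of 503 bp just past the last exon, 7.03 kb from the start site (chr13:113000621-113001123), had 179.3 normalized reads, and a second of 704 bp at 19.7 kb had 131.6. Both were deeper than 80% of all opened peaks (85.5% and 80.1%). The single Ccno peak, opened and of 390 bp, lay 5.45 kb upstream of the Ccno start site with 33.2 normalized reads. Within the gene body extended by 10 kb, an assignment that lets both genes share peaks, Ccno had 1 opened and 2 closed peaks, the closed ones being those inside Mcidas, and Mcidas had 1 opened and 2 closed. Of the other listed peaks within 1 Mb, 58.5% around Mcidas and 57.4% around Ccno were opened.

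**Figure D4:**
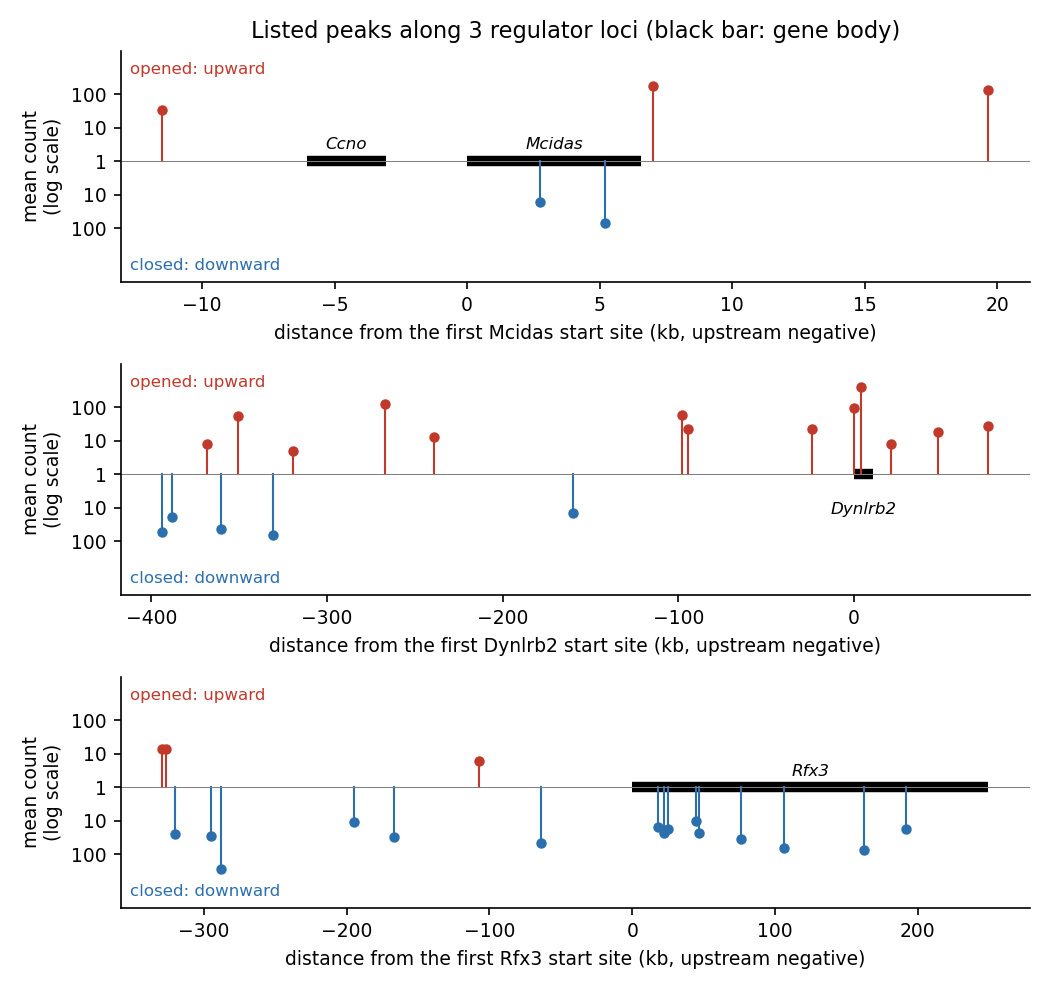
Member peaks along the Ccno and Mcidas, the Dynlrb2 and the Rfx3 loci by distance in kb from the first start site of Mcidas, Dynlrb2 or Rfx3 (upstream negative), with the mean normalized count on a log scale drawn upward for opened and downward for closed peaks and gene bodies as black bars. Closed peaks sit inside Mcidas and opened ones beyond its end, all 8 Dynlrb2 peaks within 100 kb point upward, and all 9 peaks in the body of Rfx3 point downward.

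Trp73 (ENSMUSG00000029026.16, chr4:154056253-154140208, minus strand) has an upstream start site, used by the long p73 isoforms, and internal ones, used by the forms that lack the transactivation domain. All 6 of its peaks lay in the gene. The opened peak of 360 bp at the upstream start site (chr4:154139922-154140281, centre 0.11 kb downstream, in the first exon) had 53.3 normalized reads and a GC content of 77.5%. A second opened peak lay 3.75 kb downstream of the internal start, 60 bp from the start of the antisense transcript Trp73os, and had 17.0. The internal start itself had no listed peak within 1 kb. Between both starts lay 4 closed peaks, all in introns, with 30.9, 28.5, 9.44 and 8.71 normalized reads. The opened and closed peaks of Trp73 overlapped in depth, and the closed ones lay between the opened ones. Of the other listed peaks within 1 Mb 76.5% were opened. The start site of Wrap73 lies 2164 bp from that of Trp73, and Wrap73 had 1 opened promoter peak and 0 closed peaks.

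Myb (ENSMUSG00000019982.15, chr10:21124935-21160984, minus strand) had 2 opened and 3 closed peaks. Its main peak was opened, 474 bp long and in an intron 1.70 kb downstream of the start site (chr10:21158968-21159441). It had 358.2 normalized reads, more than 94.6% of all opened peaks, and a GC content of 66.7%. The other 4 peaks lay upstream of the gene, each with under 30 normalized reads. The closed ones stood 25.9, 27.1 and 37.0 kb upstream with 21.5, 15.6 and 28.8 normalized reads, and the opened one 63.5 kb upstream with 14.6. Long noncoding transcripts are annotated over 3 of these 4, and for all 4 the nearest start site of any biotype is not that of Myb. With 1 start site per gene Myb had 6 closed peaks. Around Myb 55.6% of the other listed peaks within 1 Mb were opened.

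Foxj1 (ENSMUSG00000034227.7, chr11:116330704-116335399, minus strand) had 4 peaks and all were opened. Among the protein-coding genes with 4 or more listed peaks, 16.6% had opened peaks alone. The promoter peak of 547 bp (chr11:116335166-116335712) was centred 40 bp upstream of the start site and had 166.5 normalized reads, more than 84.3% of all opened peaks, with a GC content of 69.3%. The other 3 were below the median depth of all opened peaks. They lay 5.52 kb downstream of the start site, past the end of the gene, with 10.5 normalized reads, and 17.1 and 32.9 kb upstream, in introns of Rnf157, with 8.62 and 24.3. With start sites of every biotype, and likewise within the gene body extended by 10 kb, Foxj1 had 2 opened peaks. The region itself leaned to the opened list. Of the 196 other listed peaks within 1 Mb 85.7% were opened, the highest share around any of the 10 genes, and of the 3954 listed peaks on chromosome 11 past 50 Mb 79.9%. The part of this regional lean in the Foxj1 result was not tested.

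The RFX genes, which encode winged-helix factors that bind X-box sequences in promoters of ciliary genes, differed from each other. Rfx2 (ENSMUSG00000024206.15, chr17:56775897-56831013, minus strand) had 1 peak, opened, of 532 bp in an intron 11.1 kb downstream of the start site (chr17:56819661-56820192). With 134.3 normalized reads it was deeper than 80.5% of all opened peaks. Around it 53.2% of the other listed peaks within 1 Mb were opened.

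Rfx3 (ENSMUSG00000040929.17, chr19:27761721-28011166, minus strand) had 18 peaks, 15 of them closed. Among the 847 protein-coding genes with 18 or more listed peaks, 23.6% had as large a closed share. Every one of the 9 peaks within the gene body was closed and intronic, with 10.1 to 74.5 normalized reads (median 23.1). None lay within 1 kb of any of its 4 start sites. Upstream of the gene there were 6 closed peaks with 11.2 to 266.4 normalized reads and 3 opened ones with 6.09, 13.7 and 13.9. The deepest peak of the locus, closed, 1064 bp long and with 266.4 normalized reads (more than 98.7% of all closed peaks), stood 288 kb upstream (chr19:28298694-28299757) in an intron of Glis3. It and 4 further peaks, 3 closed and 2 opened in all, lie within Glis3, so their link to Rfx3 rests on the start-site rule alone. Of the 46 other listed peaks within 1 Mb 67.4% were opened. At most 100 kb from the start site, 8 of 8 Rfx3 peaks were closed. With start sites of every biotype Rfx3 kept 4 closed and 0 opened peaks, and within the gene body extended by 10 kb 9 and 0.

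Dynlrb2 (ENSMUSG00000034467.7, chr8:116504974-116515915, plus strand) had 18 peaks as well, 13 of them opened. Of the genes with 18 or more listed peaks, 18.4% had as large an opened share. Its promoter peak of 273 bp (chr8:116504822-116505094) was centred 16 bp upstream of the start site and had 97.5 normalized reads. The deepest member peak of all, 982 bp long and with 404.6 normalized reads (more than 95.9% of all opened peaks), lay 4.12 kb downstream of the start site in an intron of Dynlrb2 (chr8:116508643-116509624). All 8 peaks within 100 kb were opened, with 8.07 to 404.6 normalized reads. Of these, the peak 76.4 kb downstream lay in an intron of Cdyl2. Those 97.7, 94.8 and 23.9 kb upstream were nearer to the start site of a noncoding RNA or a pseudogene. Beyond 100 kb 5 were opened, with 4.92 to 123.5, and 5 closed, with 14.1 to 66.4. These far peaks reached 393.6 kb upstream. With start sites of every biotype Dynlrb2 had 5 opened and 0 closed peaks, and within its gene body extended by 10 kb 2 and 0. Among the other listed peaks within 1 Mb 68.0% were opened. Nme5 (ENSMUSG00000035984.14, chr18:34562634-34579115, minus strand) had no listed peak. The listed peak nearest to its start site was closed, 37.8 kb away, had 28.2 normalized reads and was assigned to Wnt8a. The gene 4933408B17Rik, whose start site is 18353 bp from that of Nme5, had no listed peak either.

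Short strings were searched on both strands over each whole peak. A match is a description of the letters, not a bound site. The half-site GTTGCC of the X-box, which RFX factors bind, was in 7 of the 58 member peaks (12.1%, against 12.8% of all listed peaks). It was in both the Foxj1 and the Dynlrb2 promoter peak, centred 110 bp and 8 bp upstream of the start site, in the opened intronic peaks of Rfx2 and Myb, and in 3 closed peaks, 2 of Rfx3 and 1 of Trp73. Of all listed peaks within 10% of the width of the Foxj1 promoter peak 20.6% held it, and 11.4% of those like the Dynlrb2 promoter peak. The forkhead string TGTTTAC was in 6 member peaks (10.3%, against 10.4%). Of these 5 were opened, 3 at Dynlrb2, 1 at Ccno and 1 at Rfx3, and 1 at Rfx3 was closed, while over all peaks the string was in 9.50% of the opened and 11.4% of the closed. With the search limited to the central 200 bp 2 of the 6 were left (3.45% of the member peaks, against 7.80% of all listed peaks). Of the strings given next the E2F form GCGGGAA fell from 3 to 1 member peak (1.72%, against 1.37%). TEAD fell from 8 to 4 (6.90%, against 12.5%) and RBPJ from 7 to 2 (3.45%, against 16.8%). The MYB string GGCNGTT was in 7 (12.1%, against 13%), among them the main Myb peak and the Dynlrb2 promoter. The E2F string GCGGGAA was in 3, all opened, in the Foxj1 promoter, at the first start site of Trp73 and in the far Mcidas peak (5.17% of the member peaks, against 2.87% of all listed peaks, and 10.3% of the opened member peaks, against 4.25% of all opened ones). The form TTTNGCGC was in none, and in 0.72% of all listed peaks. In the Foxj1 promoter GCGGGAA overlapped a TEAD string GGAATG.

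The AP-1 string TGANTCA was more frequent in the closed than in the opened member peaks, as it was in the lists as a whole. It was in 14 of the 29 closed member peaks (48.3%, against 29.9% of all closed peaks) and in 3 of the 29 opened ones (10.3%, against 15.1% of all opened peaks). Rfx3 gave 8 of the 14 and Dynlrb2 3, both closed Mcidas peaks held one, and Trp73 gave 1. The closed intronic peaks of Mcidas and Rfx3 printed above were picked for their AP-1 string, so the match itself is no result. Of all listed peaks of like width, opened and closed together, 6.26% held one for the Mcidas peak of 78 bp. For the Rfx3 peak it was 27.9%. The p53 family half-site (3 purines, C, A or T, A or T, G and 3 pyrimidines), which p73 can bind, was in 9 member peaks (15.5%, against 10.6%), 2 of them closed peaks of Trp73. The remaining strings were in 16 member peaks (NKX2, CACTTNA, 27.6% against 21.8%), 8 (TEAD, GGAATG, 13.8% against 18.8%) and 7 (RBPJ, TGGGAA, which the Notch effector binds, 12.1% against 26.1%). Complete RFX consensus strings of the study's motif table, each in at most 0.0585% of all listed peaks, were in no member peak.

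The other genes of the ciliary program were counted from lists, given here by counts because no value per sample was used. Over all listed peaks 50.8% were opened. Of all protein-coding genes 26.6% had an opened and 8.42% a closed promoter peak. Of 18 other regulators of multiciliation and centriole amplification, 14 had a peak, with 32 opened and 36 closed (47.1% opened). Opened promoter peaks were at Gmnn, which encodes geminin, Rfx1, Foxn4 and Tfdp1 (4 of 18, 22.2%), and closed ones at Stil and Tfdp2 (11.1%). Over the 3 ciliary lists the 5 genes with the most opened peaks were Rfx4 (9 opened, 3 closed) and Trp63 (9 and 9), paralogs of members, and Cfap43 (5 and 0), Dnah2 (5 and 0) and Ulk4 (5 and 4). The 77 genes of motile cilia structure and motors had 85 opened and 133 closed peaks (39.0% opened, Wilson interval 32.8 to 45.6%). In that list 15 genes had an opened promoter peak (19.5%), among them Tubb4b, Cfap43, Zmynd10, Gas8 and Dynlrb1, the paralog of Dynlrb2, and 17 a closed one (22.1%), among them the dynein heavy chain genes Dnah7a, Dnah9 and Dnah10, Rsph4a of the radial spoke, Ccdc39, Armc4 and Efcab1. The 5 genes with the most closed peaks over the 3 ciliary lists were Efcab1 (1 opened, 15 closed), Ift57 (1 and 14), Cdhr3 (3 and 14), the dynein heavy chain gene Dnah5 (2 and 13) and Tfdp1 (1 and 10). Of 28 genes of intraflagellar transport, which primary cilia use as well, 14 had an opened promoter peak (50%) and 1 a closed one (3.57%, Dync2h1), and the list had 39 opened and 33 closed peaks (54.2% opened).

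**Figure D5:**
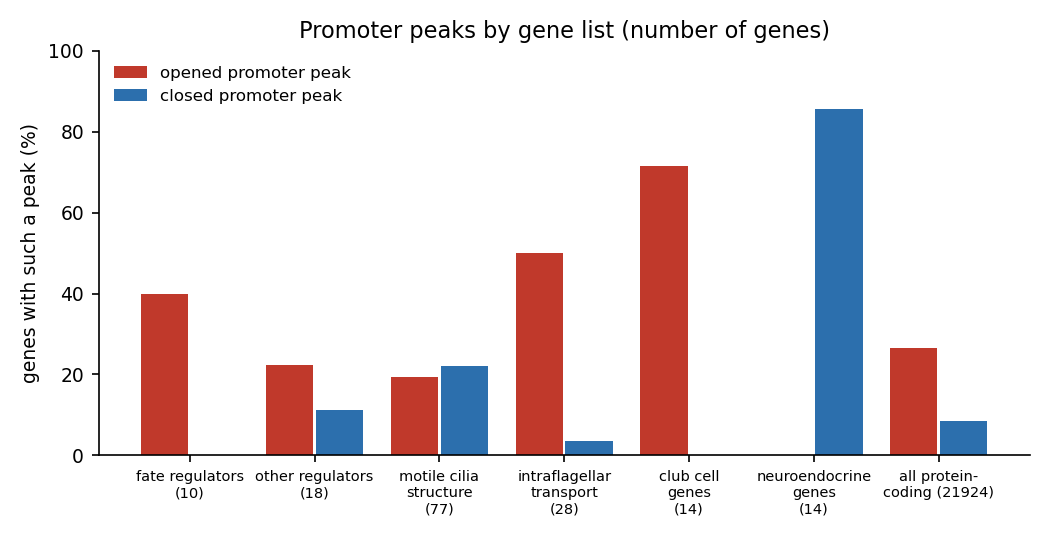
Share of genes with an opened (red) or closed (blue) peak within 1 kb of a start site, in percent, for the 10 fate regulators, 3 further ciliary lists, club cell genes, neuroendocrine genes and all protein-coding genes, with the number of genes in brackets. The fate regulators stand at 40% opened and 0% closed, the motile cilia structure genes at 19.5% and 22.1%, and all protein-coding genes at 26.6% and 8.42%.

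Genes of other cell types were counted in the same way, beside the regulators' 50% and the 50.8% over all listed peaks. The promoter counts below stand beside 26.6% of all protein-coding genes with an opened and 8.42% with a closed promoter peak. Club cell genes had 66 opened and 13 closed peaks (83.5% opened) and opened promoter peaks at 10 of 14 genes, among them Scgb1a1, Scgb3a2 and Cyp2f2. Neuroendocrine genes had 11 opened and 97 closed peaks (10.2% opened) and closed promoter peaks at 12 of 14 genes, among them Insm1 and Chga. Of 12 ciliated cell markers, which include 3 of the 10 regulators, Foxj1 and Dynlrb2 had an opened promoter peak, while Ccdc39, Cdhr3, Sntn and Tppp3 had a closed one, and the list had 30 opened and 41 closed peaks (42.3% opened). Per the study's methods, the cells were stained for CD45, CD31 and TER-119, which mark leukocytes, endothelium and red blood cells, and for CD24 before the sort. Among markers of other cells, opened promoter peaks were at 2 of 10 leukocyte, 1 of 8 endothelial and 1 of 8 fibroblast markers, and closed ones at 0, 1 and 2. Their peaks were 17 opened and 11 closed (leukocyte, 60.7% opened), 20 and 54 (endothelial, 27%) and 10 and 15 (fibroblast, 40%). Their part in the regulators' peaks was not tested.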

How the data were processed

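ATAC-seq of sorted GFPhigh and GFPneg SCLC cells gave 16 runs (8 libraries on 2 lanes). The authors trimmed the reads, aligned them to mm10 with Bowtie2 2.3.4.1, removed duplicates with Samtools, called narrow peaks with MACS2 with reads shifted and extended around the Tn5 insertion, joined them into 1 list over the samples, and used bedtools to count the reads of every sample per peak. They compared the groups with DESeq2 1.28.1 and deposited the peaks past their limits on fold change and adjusted p. The deposited signal used here is the mean normalized count of a peak over all libraries, a value the authors pooled. The deposited columns of their comparison (log2 fold change, its standard error, test statistic, p-value and adjusted p-value) were not used, so direction comes only from the list a peak is in. The depth per library is therefore unknown, and whether lanes or the pairs of 1 mouse were summed is not given in the sources used here.

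Peaks were placed on GRCm38.p6 and the basic GENCODE vM21 annotation with Python 3.11.15, numpy 2.4.6, pandas 2.3.3, scipy 1.17.1 and matplotlib 3.10.9. A peak went to the gene with the protein-coding start site nearest to its centre, without a limit on distance, and was a promoter peak within 1 kb of it. Its class (promoter, exon, intron, intergenic) used start sites of every biotype. Shares carry 95% Wilson intervals, which cover counting error only. The assignment was tested on simulated data. For motifs only a plain text search for a planted string was checked, so degenerate strings and the reverse strand were not tested. No test between groups was run. Results for 1 further motif and 1 gene of a comparison list are not reported here. The genes named are the 10 regulators with every peak, and of other lists genes with a promoter peak in either list, the 5 with the most opened and the 5 with the most closed peaks, and genes with a start site within 20 kb of a regulator's. Genes that host or lie next to a regulator peak (Rnf157, Glis3, Cdyl2, Trp73os) and Wnt8a were named only to place peaks, after the values were seen. The members and lists were chosen with earlier results of these data known. Other assignments, a limit on distance, a minimum mean count of 20, merging within 100 bp, other promoter distances and the central 200 bp for motifs were tried as alternatives.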

Additional observations from a re-analysis of the deposited data

How the results depend on the processing

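The even split of the regulators' 58 peaks (29 opened, 29 closed) depended on how peaks were assigned to genes. With the nearest start site of genes of every biotype 14 opened and 7 closed peaks were left (66.7% opened, against 57.7% of all listed peaks whose nearest such start site is that of a protein-coding gene), and the other ciliary genes had 132 closed peaks in place of 202. At most 100 kb from the start site 17 closed peaks were left. With peaks in the gene body extended by 10 kb there were 12 opened and 17 closed ones, and 236 opened peaks at the other ciliary genes in place of 156. A minimum mean count of 20 left 16 opened and 18 closed peaks, and 112 closed ones at the other ciliary genes. A promoter distance of 3 kb gave 5 genes with an opened and 1 with a closed promoter peak (Mcidas), and one of 500 bp gave 3 and 0, in place of 4 and 0. The alternatives without single genes were chosen after seeing the data. Without Rfx3 there were 14 closed peaks (65% opened), without Dynlrb2 16 opened peaks, and without both 13 opened and 9 closed. With start sites of every biotype Trp73 kept 1 opened and 1 closed peak and Myb 1 and 0. The opened share was 41.4 to 55.3% under the remaining assignments and limits on all 10 genes. Merging peaks and taking 1 start site per gene moved no count of the whole group by over 1.5 times, though the latter gave Myb 6 closed peaks in place of 3. No paired analysis was possible because the deposited values are pooled over the libraries, and for the same reason no replicate could be left out. Peaks of few reads, such as those under 20, rest on little depth, and the part of depth in the split was not tested.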
